A study of Mus musculus with 24 samples.

Results

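The hearts described here are the 8 taken at day 10 (D10) of experimental autoimmune myocarditis (EAM), 4 from EAM mice and 4 from control mice, out of 24 hearts in the series. They were picked by their sample labels, and genes were kept where at least 10 reads were counted in at least 4 of the 8 hearts, which left 15029 of 41388 genes. All mice were wild-type male BALB/cAnNCrl animals, 8 to 10 weeks old when immunized on day 0 and again on day 7. EAM mice received a cardiac myosin heavy chain peptide (MyHC-α, 100 μg) emulsified in supplemented complete Freund's adjuvant (SCFA), while control mice received the adjuvant with PBS and no peptide. Pertussis toxin was given on day 0 to both groups, so adjuvant and toxin were common to all 8 hearts and the treatments differed in the peptide. RNA came from a piece of each heart. Samples for the series were picked with a preference for inflamed tissue, since the disease may not develop in each immunized mouse, and this preference is no measure of inflammation in the hearts of day 10.

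In EAM, T cells primed against cardiac myosin enter the heart, release interferon-γ and other cytokines, and draw in monocytes and neutrophils through chemokines. Interferon-γ acts on a large set of target genes, among them the chemokines Cxcl9 and Cxcl10, the guanylate-binding proteins and the genes of antigen presentation. Working cardiomyocytes of the ventricle and atrium share most of their contractile genes, but a small set, including Bmp10, Sln and Myl7, belongs to the atrium in the adult heart.

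The libraries held between 16578239 and 21730377 counted reads. Reads of mitochondrially encoded genes took between 5.04% of a library, in EAM replicate 1, and 7.69%, in control replicate 4. On the first principal component of log2 CPM (CPM are counts scaled to a common library size after TMM normalization), which held 64.2% of the variance, EAM replicate 1 lay at 85.7 and EAM replicate 3 at 22.8, while EAM replicates 2 and 4 lay at -10.0 and -4.27, near the control hearts at -37.5 to -10.2. EAM replicate 1 therefore stood apart from the 7 other hearts, and values without it are given where they change a result.

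No gene separated the groups by edgeR's quasi-likelihood test at a Benjamini-Hochberg FDR under 0.01 with at least a 2-fold change, so 0% of the genes tested were called higher and 0% lower. The smallest adjusted p by this test was 0.254. At an unadjusted p under 0.05, 1459 genes were higher in EAM (9.71% of those tested) and 833 were lower (5.54%). By limma-voom 868 genes were higher and 1002 lower at that limit. In 601 genes all 4 EAM hearts lay above all 4 control hearts (4.0%), and in 634 all 4 lay below (4.22%). By edgeR's likelihood ratio test with the same limits, 45 genes were called higher (0.299%) and 2 lower (0.0133%). This test, unlike the quasi-likelihood test, takes no account of the uncertainty in each gene's dispersion. Without EAM replicate 1 the likelihood ratio test called 46 and 2 genes, and 37 genes were called in both fits.

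The EAM hearts were spread more widely than the control hearts. The median SD of a gene over the 4 hearts, on the log2 CPM scale, was 0.24 in EAM and 0.13 in controls, and the SD was larger in EAM for 79.5% of genes. With EAM replicate 1 left out these values were 0.16 and 59.97%. Set against the mean of the controls, 1594 genes were at least 2-fold higher in EAM replicate 1, 494 in replicate 3, 206 in replicate 4 and 172 in replicate 2. A control heart set against the other 3 controls gave between 46 and 167 such genes. Set against 3 controls at a time, EAM replicates 2 and 4 gave a mean of 185.8 and 215.2 genes, above that range. Genes at least 2-fold lower numbered 572, 105, 186 and 27 in EAM replicates 1 to 4, against 42 to 209 in a control heart. In 1048 genes the 2-fold difference upward was seen in EAM replicate 1 and in no other EAM heart, and in 29 genes it was seen in all 4. Among the 705 genes with a fitted change of at least 2-fold upward, EAM replicate 1 was the highest heart in 663, while replicate 2 was the lowest EAM heart in 487.

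**Figure D1:**
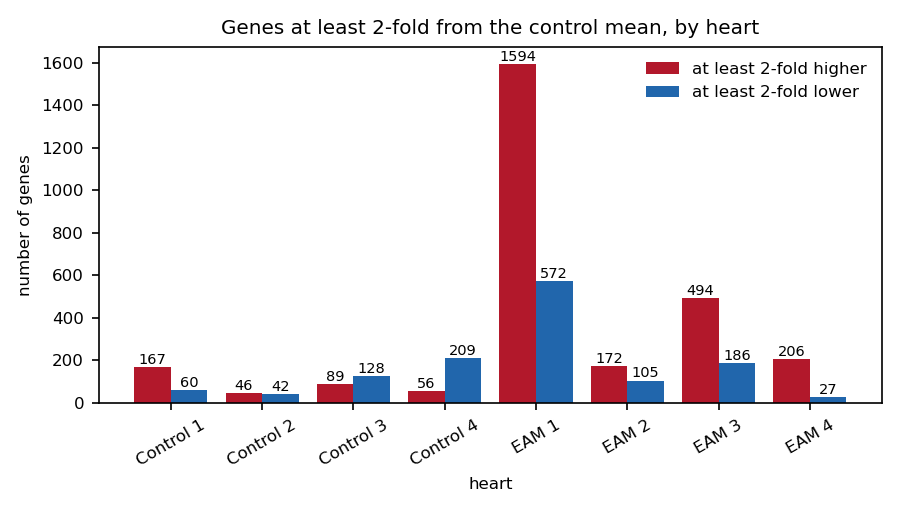
Number of genes (vertical axis) at least 2-fold higher (red) or lower (blue) in each of the 8 hearts (horizontal axis) on the log2 CPM scale, the EAM hearts against the mean of the 4 controls and each control against the mean of the other 3. EAM replicate 1 reaches 1594 genes higher, EAM replicate 3 494, and EAM replicates 2 and 4 lie close to the highest control, at 167.

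Interferon-γ targets were high in 2 of the EAM hearts and close to the controls in the other 2. All 26 targets tested had a higher mean in EAM, with a median log2 fold change of 2.14 against -0.01 over all genes tested, and 24 of 26 had an unadjusted p under 0.05, where 9.71% of all genes did. In 5 of the 26 all EAM hearts lay above all controls, against 4.0% of all genes, and in 14 of 26 when EAM replicate 2 was left out. The median difference of the list from the control mean was 3.53 in EAM replicate 1 and 1.68 in replicate 3, but 0.21 in replicate 2 and 0.44 in replicate 4, against -0.34 to 0.30 in the controls. A control heart set against the other 3 lay between -0.46 and 0.405, so EAM replicate 2 was within that range. Without EAM replicate 1 the median log2 fold change was 0.92 and 18 of the 26 had an unadjusted p under 0.05. Since whole tissue was sequenced, a change in the number of cells of a type and a change in RNA per cell cannot be told apart here or in any result that follows.

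Cxcl9, a chemokine that draws in activated T cells (chromosome 5, 92321347 to 92328079, GRCm38), had 312, 3.4, 49.9 and 8.11 CPM in EAM replicates 1 to 4 and 3.41, 2.03, 1.68 and 1.61 CPM in control replicates 1 to 4. EAM replicates 1, 3 and 4 were above every control, and replicate 2 was level with the highest control. The log2 fold change was 5.41 (standard error 1.40, adjusted p = 0.328 by the quasi-likelihood test). Cxcl10, which acts on the same receptor and is counted here with the chemokine ligands (chromosome 5, 92346638 to 92348889), had 102, 1.89, 22.3 and 3.06 CPM in EAM and between 0.271 and 1.65 CPM in controls. The EAM hearts did not overlap with the controls for this gene, and the log2 fold change was 5.15 (standard error 1.34, adjusted p = 0.328). Gbp2, a guanylate-binding protein that attacks intracellular pathogens, had 535, 45.1, 123 and 47.4 CPM in EAM and 30.9 to 42.2 CPM in controls, also without overlap. Socs1, which limits interferon signalling, had 60.1, 3.73, 10.2 and 2.70 CPM in EAM and 0.900 to 2.97 CPM in controls. Ifng itself, the ligand, had too few reads to be tested.

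The reference promoters of the interferon-γ targets, and that of Cxcl10, were searched for a pair of interferon response motifs, and 3 are shown because they hold such letters and their genes lay above every control in all 4 EAM hearts, which was known when they were chosen. Capitals mark TTCNNNGAA (the gamma-activated site, GAS, a palindrome) and GAAANNGAAA (the interferon-stimulated response element, ISRE, on either strand), which do not overlap in these windows. Each is the 250 bases before the RefSeq start of the gene on GRCm38.p6, 5′ to 3′ in the direction of transcription. The Cxcl10 window lies at chr5:92348890-92349139 (minus strand), the Gbp2 window at chr3:142620413-142620662 (plus strand) and the Irgm2 window at chr11:58214727-58214976 (plus strand).
Cxcl10: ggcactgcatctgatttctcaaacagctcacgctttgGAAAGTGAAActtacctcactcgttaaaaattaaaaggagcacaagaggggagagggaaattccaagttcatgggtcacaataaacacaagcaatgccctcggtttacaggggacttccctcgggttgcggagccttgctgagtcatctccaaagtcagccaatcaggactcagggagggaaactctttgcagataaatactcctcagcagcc
Gbp2: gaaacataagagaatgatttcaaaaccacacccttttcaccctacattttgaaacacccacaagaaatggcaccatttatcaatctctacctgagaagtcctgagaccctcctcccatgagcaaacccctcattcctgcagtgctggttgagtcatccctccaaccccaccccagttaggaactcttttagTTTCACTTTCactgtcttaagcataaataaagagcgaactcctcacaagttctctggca
Irgm2: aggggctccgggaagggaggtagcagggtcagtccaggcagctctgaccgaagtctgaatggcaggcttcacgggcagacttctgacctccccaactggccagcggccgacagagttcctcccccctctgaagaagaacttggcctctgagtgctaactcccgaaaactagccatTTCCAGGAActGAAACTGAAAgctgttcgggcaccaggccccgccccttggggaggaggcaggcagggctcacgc
Of the 26 targets, which do not include Cxcl10, 16 had a promoter in the reference table, and 8 of these held a GAS and 11 an ISRE, against 8.13% and 3.46% of 27025 genes with a promoter. Cxcl9 had neither in its window. Irgm2, an interferon-inducible GTPase that guards vacuoles in the cell, had 419, 71.4, 239 and 76.8 CPM in EAM and 29.3 to 70.5 CPM in controls, with no overlap. Several of these targets are near-identical neighbours, so their promoters are not independent of each other and their reads may be split between copies.

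In 11 of 25 chemokine ligands tested every EAM heart lay above every control, where 4.0% of all genes did. A higher mean in EAM was found for 22 (median log2 fold change 1.28), and 16 had an unadjusted p under 0.05 upward, against 9.71% of all genes. When EAM replicate 1 was left out the median was 0.84 and 14 had such a p. Cxcl2, Cxcl10, Cxcl13, Ccl3 and Ccl4, among the 11, would not have met the read minimum in the controls alone. Ccl2, the main attractant of monocytes, had 114, 33.3, 41.0 and 17.4 CPM in EAM and 4.95 to 17.3 CPM in controls, so that replicate 4 only just cleared the highest control (log2 fold change 2.15, standard error 0.61, adjusted p = 0.328). Cxcl5, which draws in neutrophils, had 203, 15.1, 54.2 and 10.0 CPM in EAM and 1.22 to 8.13 CPM in controls. Cxcl13, the attractant of B cells and follicular T cells, had 32.7, 7.30, 7.61 and 4.28 CPM in EAM and 0.450 to 2.50 CPM in controls. For both genes every EAM heart was above every control. Ccl8, a further monocyte attractant, had 67.0, 29.5, 40.7 and 23.9 CPM in EAM and 11.8 to 21.5 CPM in controls, again without overlap. Ccl5, made by cytotoxic lymphocytes, instead had 24.4 and 3.51 CPM in EAM replicates 1 and 3 but 0.973 and 0.969 CPM in replicates 2 and 4, inside the control range of 0.707 to 1.04 CPM.

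Of 18 inflammatory cytokines tested, Il1a and Osm had under 10 reads in every control and reached the read minimum through the EAM hearts alone, so they are left out of the counts. Of the other 16, 8 had an unadjusted p under 0.05 upward and 1 downward (median log2 fold change 1.003), against 9.71% and 5.54% of all genes. Leaving out EAM replicate 1, the median was 0.34 and 5 had such a p upward. Il6, Il18 and Lif, kept among the 16, would not have met the read minimum in the controls alone, and their counts carry that limit. Il6, which drives acute phase responses, had 46.8, 2.27, 5.27 and 0.918 CPM in EAM and 0.193 to 1.04 CPM in controls. Il1a, an alarmin of damaged cells, had 10.6, 1.35, 1.97 and 0.816 CPM in EAM and 0.0643 to 0.217 CPM in controls, values that are given as a description. Il1b, the macrophage form of interleukin-1, had 106, 9.84, 21.5 and 9.07 CPM in EAM and 4.02 to 9.29 CPM in controls. Il1rn, the natural blocker of the interleukin-1 receptor, had 106, 6.11, 19.4 and 5.91 CPM in EAM and 1.09 to 4.86 CPM in controls. Tnf had 14.2 CPM in EAM replicate 1, while 2.59, 2.71 and 1.33 CPM were measured for replicates 2, 3 and 4 and 1.19 to 2.42 CPM for controls, so the log2 fold change of 1.69 rested on 1 heart. Of the 3 EAM hearts other than replicate 1, replicate 3 had the highest level of each of these 5 cytokines.

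Ptprc and the marker lists of neutrophils, monocytes and T cells were highest in EAM replicate 1, then in replicates 3, 4 and 2. Ptprc, which encodes the pan-leukocyte antigen CD45, had 186 CPM in EAM replicate 1, then 54.1 in replicate 3, 40.2 in replicate 4 and 26.4 in replicate 2, with 23.3 to 37.1 CPM in controls. Neutrophil markers had a median log2 fold change of 1.26, with 10 of 14 at an unadjusted p under 0.05 upward, against 9.71% of all genes, and those of monocytes and macrophages 0.77, with 11 of 17. Without EAM replicate 1 these medians were 0.66, with 6 of 14, and 0.39, with 7 of 17. The summed level of the neutrophil list was 1053, 208, 405 and 350 CPM in EAM replicates 1 to 4 and 152 to 292 CPM in controls. T cell markers had a median of 1.56 over 10 tested, of which 3 had such a p, and of 0.52 without EAM replicate 1, when 0 of 10 did. Without replicate 2 or replicate 4, 7 of 10 did, and without replicate 3 1 did, when 7 of 17 monocyte markers did. The 8 other T cell markers of the list had too few reads for a test. Cd3e, a chain of the T cell receptor complex, had 3.70, 0.540, 1.65 and 0.867 CPM in EAM and 0.326 to 0.771 CPM in controls. Klrk1, an activating receptor of NK cells and cytotoxic T cells, had 12.8, 0.432, 1.70 and 0.663 CPM in EAM and 0.149 to 0.934 CPM in controls. For both genes EAM replicate 2 lay inside the controls and replicate 1 far above them. B cell and dendritic cell markers had medians of 0.07 over 6 genes and -0.01 over 9.

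Of 12 genes of MHC class II presentation 7 had an unadjusted p under 0.05 upward (median 1.29), against 9.71% of all genes, and of 19 genes of MHC class I and the immunoproteasome 14 did (median 0.80). With EAM replicate 1 omitted these counts were 1 of 12 and 6 of 19, with medians of 0.57 and 0.38. Omitting replicate 3 gave 4 of 12 and 4 of 19, and omitting replicate 2 gave 11 of 12 and 17 of 19. Ciita, the master regulator of class II genes, had 46.1, 2.92, 12.9 and 6.12 CPM in EAM and 2.61 to 6.15 CPM in controls, so replicates 2 and 4 overlapped with the controls. Tap1, the peptide transporter of class I, had 227, 21.8, 78.2 and 27.4 CPM in EAM and 13.1 to 27.0 CPM in controls. Of 14 acute phase and secreted defence genes 10 passed the same unadjusted limit (median 1.56), and control replicate 4 was the lowest of the controls on this list, with a median difference of -1.22 from their mean. Saa3, a serum amyloid made in inflamed tissue, had 366, 38.2, 180 and 45.9 CPM in EAM and 40.3, 36.8, 18.9 and 0.771 CPM in control replicates 1 to 4, which shows how far the low control spread the group. Lcn2, an iron-sequestering defence protein, had 326, 80.8, 188 and 60.3 CPM in EAM and 12.9 to 69.6 CPM in controls. Timp1, an inhibitor of matrix proteases, had 266, 16.3, 67.3 and 19.4 CPM in EAM and 3.92 to 20.7 CPM in controls. The endothelial adhesion list as a whole had a median of -0.01, with 5 of 10 genes higher in EAM and 3, Sele, Selp and Icam1, at an unadjusted p under 0.05 upward. Of the endothelial selectins, which slow leukocytes on the vessel wall, Sele had 24.3, 17.7, 9.20 and 8.26 CPM in EAM and 3.99 to 8.19 CPM in controls. Selp had 56.1, 18.5, 21.8 and 10.0 CPM in EAM and 3.99 to 9.73 CPM in controls. Both selectins were above the controls in every EAM heart, while Vcam1, the ligand of leukocyte integrins, had 56.2 to 114 CPM in EAM and 39.0 to 68.0 CPM in controls and overlapped. C3, the central complement component, had 804 to 1085 CPM in EAM and 479 to 1036 CPM in controls, and 13 of 27 complement genes had an unadjusted p under 0.05 upward (median 0.43).

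**Figure D2:**
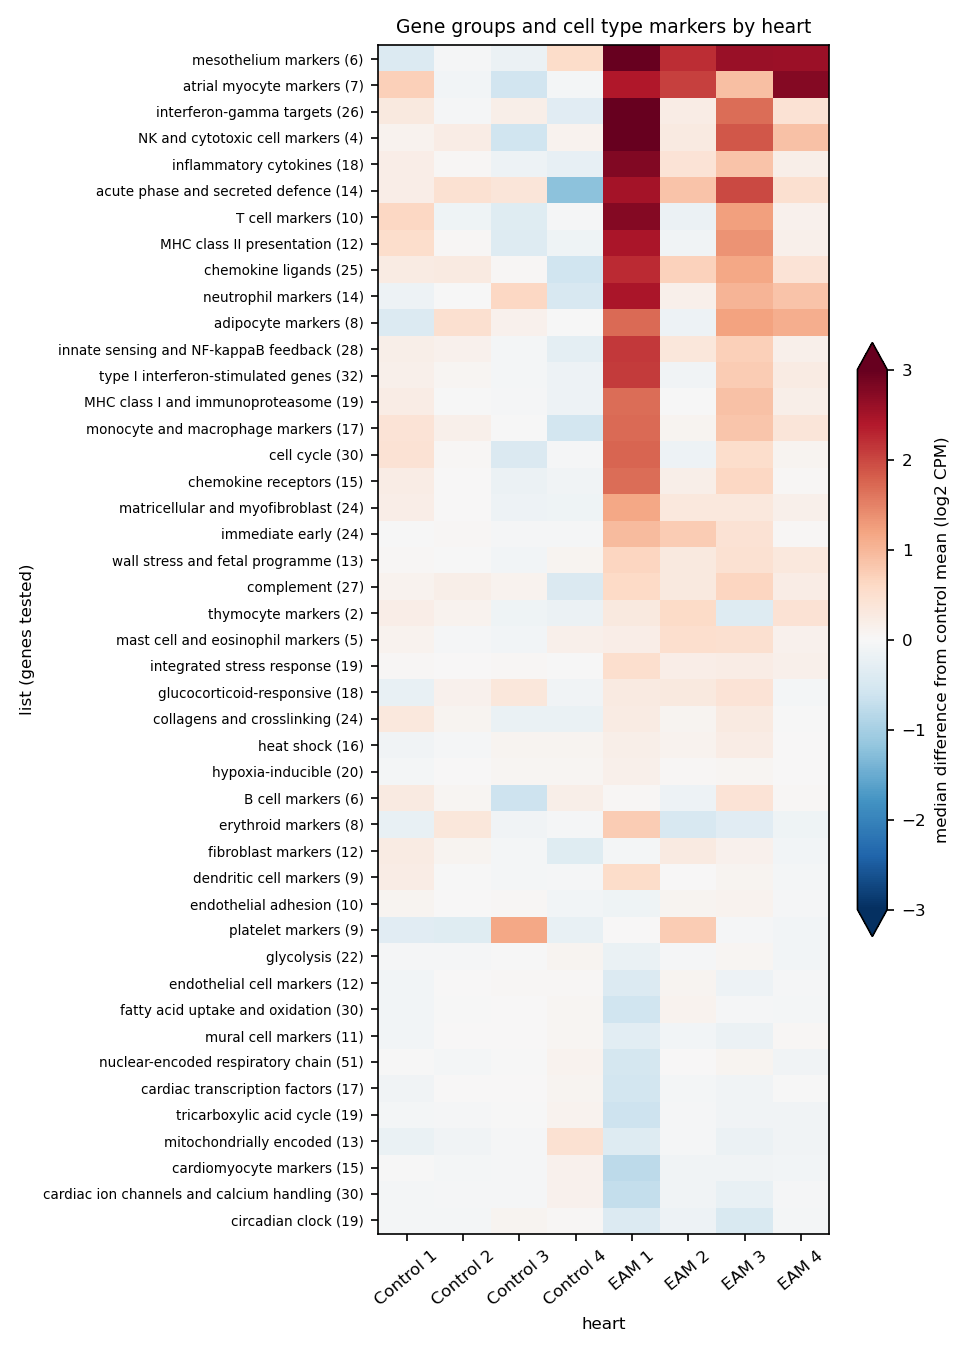
Median difference from the control mean on the log2 CPM scale (colour, clipped at 3 in either direction) for each gene group or cell type marker list (rows, with the number of genes tested) in each of the 8 hearts (columns). Most rows near the top are darkest in EAM replicate 1 and next in replicate 3, while the mesothelium row, with 3 genes that reached the read minimum through EAM hearts alone, and the atrial row are red in all 4 EAM hearts and the cardiomyocyte row is at -0.78 in EAM replicate 1.

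A second set of genes separated the groups in every EAM heart, and its order among the hearts was another one. All 7 atrial myocyte markers lay above all controls in all 4 EAM hearts, with an unadjusted p under 0.05 for each and a median log2 fold change of 2.15, and all 7 were among the genes called by the likelihood ratio test, where the shares of all genes were 4.0%, 9.71% and 0.299%. Their median difference from the control mean was 2.76 in EAM replicate 4, 2.41 in replicate 1, 2.06 in replicate 2 and 0.89 in replicate 3, against -0.58 to 0.72 in controls. Set against the other 3 controls, control replicate 1 was at 0.96. Against the mean of all 4, the reference of the 0.89 of EAM replicate 3, control replicate 1 was at 0.72. The heart with the second highest interferon-γ targets, replicate 3, was thus the lowest in atrial markers, and replicate 4, close to the controls in interferon-γ targets, was the highest. Their summed level was 1829, 1543, 624 and 2255 CPM in EAM replicates 1 to 4 and 242 to 550 CPM in controls.

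Bmp10, a secreted growth factor made by atrial cardiomyocytes (chromosome 6, 87428994 to 87437677), had 131, 157, 6.81 and 176 CPM in EAM replicates 1 to 4. In control replicates 1 to 4 it had 1.10, 0.149, 0 and 0.771 CPM, where the count of 0 in replicate 3 allows up to 0.163 CPM. In the controls alone Bmp10 would not have met the read minimum, and its test carries that limit. Its log2 fold change was 7.90 (standard error 1.16, adjusted p = 0.261 by the quasi-likelihood test). With the replicate number as a block, Bmp10 alone was called, with an adjusted p of 0.00343, although the numbers were not shown to pair the hearts. Nppa, the atrial natriuretic peptide (chromosome 4, 148000722 to 148002079), had 551, 433, 153 and 558 CPM in EAM and 132, 84.4, 55.0 and 74.4 CPM in controls (log2 fold change 2.29, standard error 0.42, adjusted p = 0.295). Sln, the atrial brake on the sarcoplasmic calcium pump, had 151, 124, 50.7 and 177 CPM in EAM and 17.2 to 44.4 CPM in controls. In each of these 3 genes replicate 3 was the EAM heart nearest to the controls. The atrial myosin light chains Myl4 and Myl7 had log2 fold changes of 1.83 and 1.81, Mybphl, a myosin-binding protein, 2.15, and the secreted protein Dkk3 1.82. Nppb, the B-type natriuretic peptide, which is induced by stretch and is not in the atrial list, had 446, 400, 391 and 376 CPM in EAM and 262 to 315 CPM in controls (log2 fold change 0.50, adjusted p = 0.283), without overlap and with little spread among the EAM hearts.

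The level of atrial transcripts also varied between hearts outside D10. In the 4 control hearts of D15 Bmp10 ranged from 0.351 to 170 CPM, and in those of D21 from 99.8 to 246 CPM, so that low Bmp10 marked all 4 D10 controls, 1 D15 control and all 4 D21 EAM hearts, where it was at most 0.281 CPM. Myl7 had a median of 71.9 CPM in D10 controls and of 424 and 509 CPM in the controls of D15 and D21. The EAM hearts of D10, at a median of 273 CPM, lay between these. Differences between these groups of hearts were not tested, and how much of the D10 difference in atrial markers came with the share of atrium in the piece of heart was not tested.

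**Figure D3:**
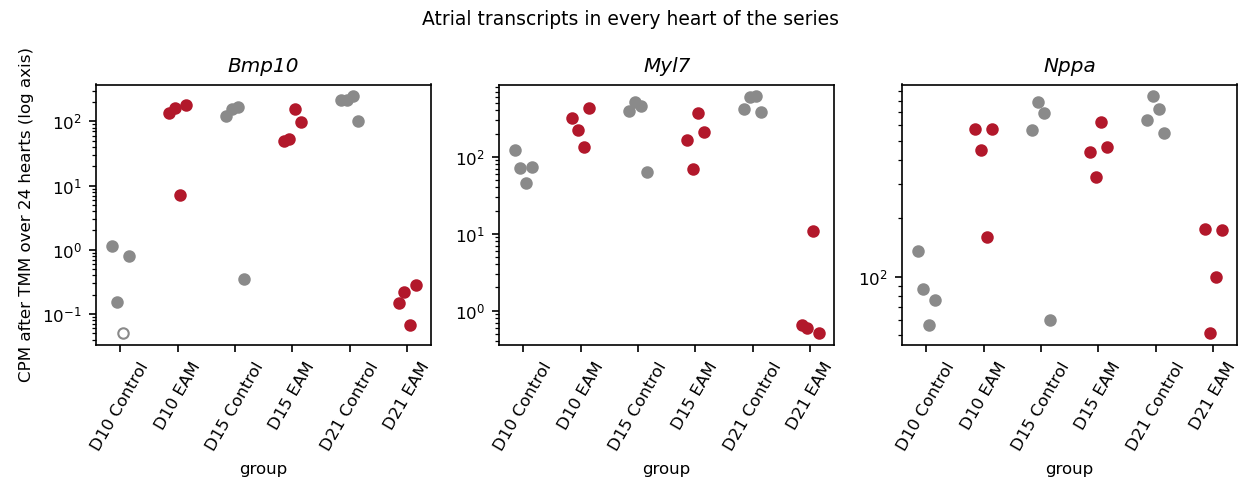
Bmp10, Myl7 and Nppa (panels) in CPM scaled over all 24 hearts, on a log axis, in each heart, grouped by day and treatment (horizontal axis), with controls in grey, EAM in red and an open circle for a count of 0 drawn at the lower edge. The D10 controls have at most 1.13 CPM of Bmp10, where the D21 controls have at least 99.8 CPM and the D21 EAM hearts at most 0.281 CPM.

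**Figure D4:**
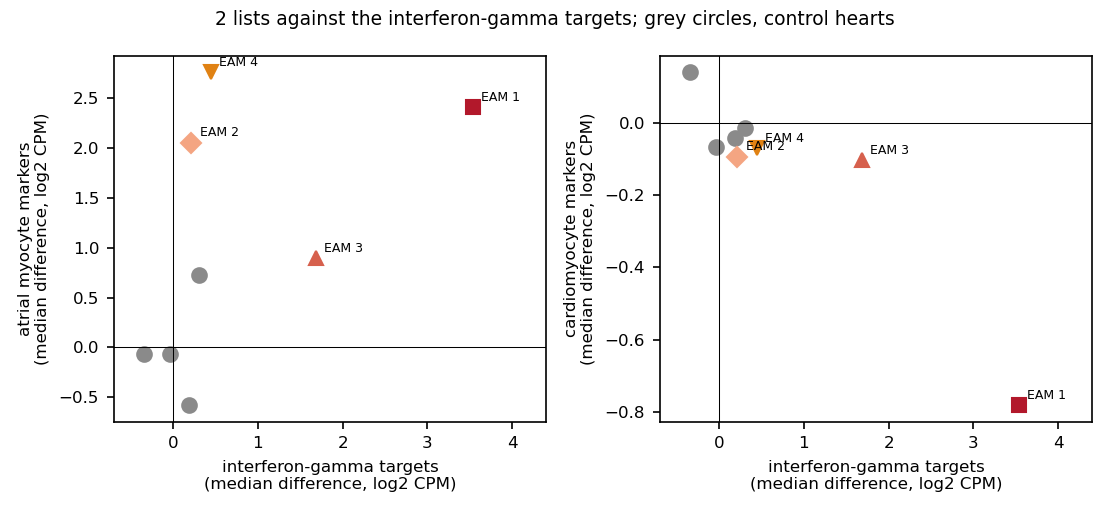
Median difference from the control mean (log2 CPM) of the atrial myocyte markers (left) and the cardiomyocyte markers (right) against that of the interferon-γ targets (horizontal axis), 1 point for each of the 8 hearts, with controls as grey circles. EAM replicates 2 and 4 are high in atrial markers at 0.21 and 0.44 in interferon-γ targets, and EAM replicate 1 is the heart with the lowest cardiomyocyte markers, at -0.78.

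Some markers of mesothelium, the cell layer that covers the heart's outer surface, also had higher levels in EAM hearts. Of 8 listed, 6 were tested, but Msln, Lrrn4 and Upk1b had under 10 reads in every control and reached the read minimum through the EAM hearts alone, so their values are given as a description with no test. The other 3, Upk3b, Krt19 and Wt1, had a summed level of 33.0, 17.6, 18.6 and 18.8 CPM in EAM and 8.24 to 12.3 CPM in controls. Msln, the surface protein mesothelin, had 7.70, 1.89, 3.56 and 3.11 CPM in EAM and 0.165, 0.447, 0.0543 and 0.386 CPM in controls. Upk3b, a uroplakin of mesothelial cells, had 17.1, 5.89, 7.66 and 8.11 CPM in EAM and 0.330 to 1.61 CPM in controls. Lrrn4 had 9.44, 1.19, 2.18 and 1.99 CPM in EAM and 0.110 to 0.321 CPM in controls. Krt19, a keratin, had a log2 fold change of 1.75. Wt1, a transcription factor of the epicardium, had 9.52 to 11.5 CPM in EAM and 7.53 to 9.83 CPM in controls and overlapped, unlike Upk3b and Krt19. Adipocyte markers were higher in EAM replicates 1, 3 and 4, with median differences of 1.70, 1.21 and 1.10, but not in replicate 2, at -0.15. Of 8 tested 5 had an unadjusted p under 0.05 upward, against 9.71% of all genes, and 2 without EAM replicate 1, while the summed level of the list, 311 to 370 CPM in EAM and 223 to 322 CPM in controls, overlapped. Cfd, the adipokine adipsin, had 24.7, 5.46, 18.5 and 13.2 CPM in EAM and 3.66 to 7.69 CPM in controls, and Retn, which encodes resistin, followed the same order, with 3.53, 0.378, 2.93 and 1.33 CPM against 0.494 to 0.707 CPM. What part these tissue layers had in any other result was not tested.

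**Figure D5:**
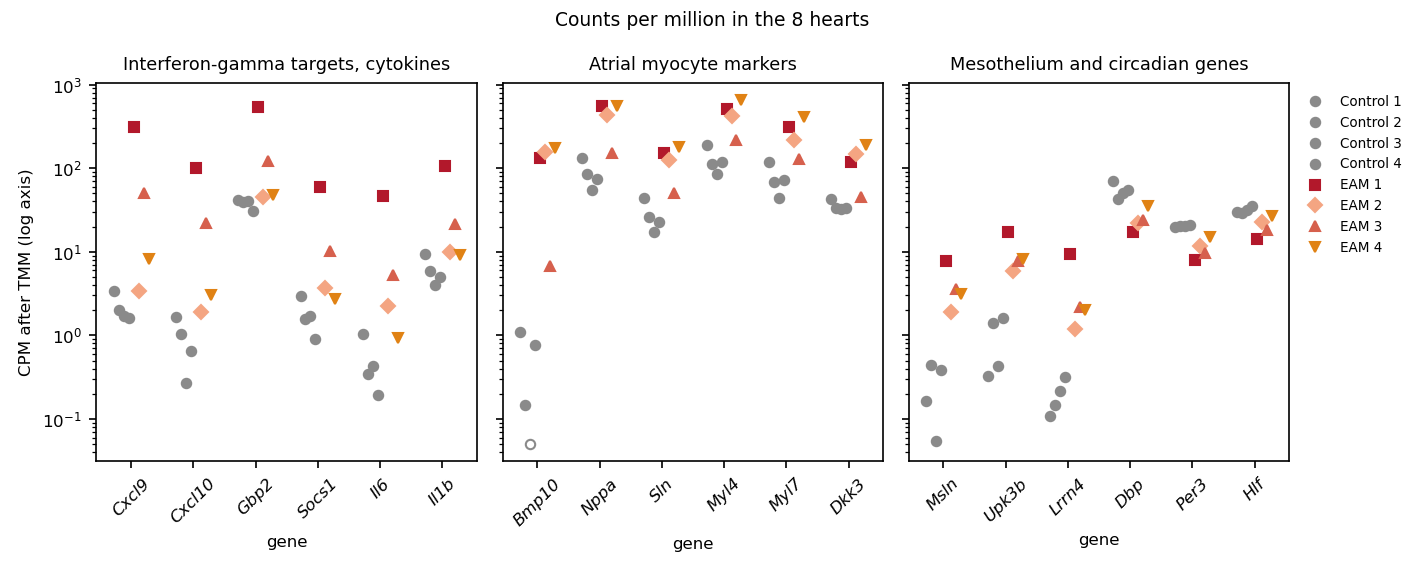
CPM on a log axis of 18 genes (horizontal axis) in the 8 hearts, with controls as grey circles and the EAM hearts as coloured symbols, in panels of interferon-γ targets and cytokines, atrial markers, and mesothelial and circadian genes. In the left panel EAM replicate 1 is highest throughout, in the middle panel replicate 3 is the lowest EAM heart, and Dbp, Per3 and Hlf at the right lie below the controls in all EAM hearts.

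Immediate early genes, the fast transcriptional response to stimuli, gave yet another order of the EAM hearts. Of 24 tested, 14 had an unadjusted p under 0.05 upward, against 9.71% of all genes (median log2 fold change 0.59), and the median difference was 0.95 in EAM replicate 1, 0.77 in replicate 2 and 0.43 in replicate 3, but 0.04 in replicate 4. Without EAM replicate 1 the median was 0.41 and 12 had such a p. Atf3, a stress-induced transcription factor, had 60.5, 24.6, 23.8 and 13.6 CPM in EAM and 7.22 to 11 CPM in controls, without overlap (log2 fold change 1.74, adjusted p = 0.328). Fos, a subunit of AP-1, had 33.0, 23, 22.9 and 6.98 CPM in EAM and 5.14 to 11.3 CPM in controls, so replicate 4 was within the controls. Egr2 had 9.83, 3.08, 3.56 and 1.43 CPM in EAM and 0.836 to 2.03 CPM in controls, and replicate 4 again overlapped. EAM replicate 2, near the controls in interferon-γ targets, was thus clearly above them in Atf3 and Fos.

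Of 19 circadian clock genes 8 had an unadjusted p under 0.05 downward, where 5.54% of all genes did, and 2 upward (median log2 fold change -0.30). The downward count was 4 without EAM replicate 3 and 10 without replicate 4. Dbp, an output transcription factor of the clock, had 17.5, 22.2, 24.1 and 34.9 CPM in EAM and 70.3, 42.4, 50.8 and 54.9 CPM in controls (log2 fold change -1.15, standard error 0.22, adjusted p = 0.302). Per3, a period gene, had 7.96, 11.7, 9.57 and 15.2 CPM in EAM and 19.7 to 21.0 CPM in controls. Hlf, a relative of Dbp, had 14.4, 22.7, 18.4 and 26.5 CPM in EAM and 28.7 to 34.9 CPM in controls. For all 3 genes every EAM heart was below every control, with replicate 4 nearest to them and replicate 1 lowest. Npas2, a partner of Arntl in the positive limb of the clock, went the other way, with 6.13, 8.22, 5.74 and 6.98 CPM in EAM and 2.76 to 4.96 CPM in controls, again with no overlap.

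Genes of the working myocardium differed most from the controls in EAM replicate 1. None of 15 cardiomyocyte markers had a higher mean in EAM (median log2 fold change -0.22, or -0.079 without EAM replicate 1), 1 had an unadjusted p under 0.05 downward, a share near the 5.54% of all genes, and the median difference from the controls was -0.78 in EAM replicate 1 but lay between -0.10 and -0.07 for replicates 2 to 4. Leaving out EAM replicates 1 to 4 in turn gave 0, 0, 1 and 4 downward. The summed level of the markers was 30310, 51660, 45970 and 52580 CPM in EAM and 48510 to 58630 CPM in controls. EAM replicates 1 and 3 were below every control in this sum. Myh6, the α-myosin heavy chain that supplied the immunizing peptide, had 6076, 12968, 9414 and 12615 CPM in EAM and 9543 to 13281 CPM in controls (log2 fold change -0.21, standard error 0.26, adjusted p = 0.646). Atp2a2, the calcium pump of the sarcoplasmic reticulum, had 6467, 10673, 9288 and 10516 CPM in EAM and 9632 to 11584 CPM in controls. Tnni3, cardiac troponin I, had 1245, 1905, 1914 and 1761 CPM in EAM, with 1794 to 2059 CPM in controls. Each of these 3 genes was lowest in EAM replicate 1, the heart with the most Ptprc. In Myh6 and Atp2a2 EAM replicate 3 was also below every control. Because CPM are shares of a library, a larger leukocyte share lowers these values at the same number of myocyte transcripts, and its part was not tested. The 51 nuclear-encoded respiratory chain genes had a median of -0.12, with EAM replicate 1 at -0.53 and its group mates between -0.11 and 0.08, and 0 of 51 had an unadjusted p under 0.05 in either direction, against 9.71% of all genes upward and 5.54% downward. Median log2 fold changes were -0.22 for mitochondrially encoded genes, -0.21 for the tricarboxylic acid cycle and -0.12 for fatty acid oxidation. Leaving out EAM replicate 1, these 3 medians were -0.14, -0.090 and 0.014, and that of the respiratory chain was -0.0093. The mitochondrially encoded median was -0.40 without replicate 4, and that of fatty acid oxidation was -0.21 without replicate 2.

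Of 30 ion channel and calcium handling genes 6 had an unadjusted p under 0.05 downward and 1 upward, against 5.54% and 9.71% of all genes (median log2 fold change -0.27, or -0.14 without EAM replicate 1). The downward count was 7 when EAM replicate 1 was left out, 3 when replicate 3 was and 12 when replicate 4 was. Slc8a1, the sodium-calcium exchanger, had 116, 139, 122 and 225 CPM in EAM and 205 to 248 CPM in controls, and Hcn4, the pacemaker channel, had 9.70, 9.40, 8.24 and 16.7 CPM against 15.5 to 19 CPM. In both, EAM replicates 1, 2 and 3 were below all controls and replicate 4 was within them. Gja5, the connexin of atrium and conduction system, went the other way, at 36.4, 18.1, 15.3 and 27.4 CPM in EAM and 11.7 to 14.4 CPM in controls. Of 24 genes of collagens, other matrix fibres and crosslinking, 17 had a higher mean in EAM (median 0.12) and 2 had such a p upward, no larger a share than the 9.71% of all genes. Leaving out EAM replicates 1 to 4 in turn gave 3, 4, 2 and 5 upward. Col1a1 had 571, 310, 362 and 236 CPM in EAM and 174 to 332 CPM in controls, and Postn, a marker of activated fibroblasts, had 49.9 to 61.7 CPM in EAM and 43.7 to 134 CPM in controls. Spp1, osteopontin, had 54.1, 16.7, 20.6 and 5.61 CPM in EAM and 14.2, 2.48, 1.14 and 1.09 CPM in controls, where control replicate 1 lay far above the other 3. Gdf15, a stress cytokine of the failing heart, had 11.8, 15.3, 11.3 and 9.12 CPM in EAM and 5.05 to 6.68 CPM in controls, without overlap (log2 fold change 0.97, standard error 0.17, adjusted p = 0.271).

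Several other groups were led by EAM replicate 1. Type I interferon-stimulated genes had a median log2 fold change of 1.03, with 16 of 32 at an unadjusted p under 0.05 upward, against 9.71% of all genes, and of 0.32 with 6 of 32 when EAM replicate 1 was left out. Without replicate 2 or replicate 3 these counts were 28 and 10 of 32. Genes of innate sensing and NF-κB feedback had a median of 1.07, with 17 of 28 at such a p, or 0.37 with 11 of 28 without EAM replicate 1, and all EAM hearts lay above all controls in 7 of them, against 4.0% of all genes, or in 18 without EAM replicate 4. Cell cycle genes had a median difference of 1.74 in EAM replicate 1 and 0.53 in replicate 3, but -0.15 and 0.08 in replicates 2 and 4, and 4 of 30 had such a p, a share near the 9.71% of all genes. The count was 1 without EAM replicate 1, when the median was 0.15 in place of 0.76, and 15 without replicate 2 and 11 without replicate 4. Mki67, a marker of dividing cells, had 28.9, 5.46, 9.95 and 12.4 CPM in EAM and 4.83 to 11.2 CPM in controls. Matricellular and myofibroblast genes had a median of 0.61, with 10 of 24 at such a p, or 0.39 with 6 of 24 without EAM replicate 1. Wall stress genes had a median of 0.45, with 7 of 13 upward and 1 downward. Without EAM replicate 1 their median was 0.31 with the same counts. In 6 of the 13 every EAM heart lay above every control, against 4.0% of all genes. Endothelial, fibroblast and mural cell markers had medians of -0.12, 0.02 and -0.12, and without EAM replicate 1 of -0.029, 0.11 and -0.020. None of 8 lung epithelium markers had enough reads for a test. Platelet markers, with a median of -0.02, were high in control replicate 3, at 1.16, and in EAM replicate 2, at 0.76.

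The 10 genes with the smallest p among those with all EAM hearts above all controls were H19, Vsig4, Slc39a8, Bmp10, Adh6b, Msln, Upk3b, Mt3, Ahsg and Ier5, of which Msln passed the read minimum through the EAM hearts alone. H19, an imprinted long noncoding RNA (chromosome 7, 142575529 to 142578143), had 48.9, 54.4, 46.2 and 44.1 CPM in EAM and 23.1, 30.7, 24.2 and 24.2 CPM in controls (log2 fold change 0.92, standard error 0.11, adjusted p = 0.254). Vsig4, a complement receptor of resident macrophages, had 10.7, 10.9, 7.55 and 10.8 CPM in EAM and 3.09 to 4.62 CPM in controls (log2 fold change 1.35, standard error 0.18). Slc39a8, a zinc and manganese importer, had 16.9, 8.76, 6.01 and 13.3 CPM in EAM and 2.18 to 2.69 CPM in controls (log2 fold change 2.25, standard error 0.31). That EAM replicates 2 and 4 were above every control in these 3 genes follows from how the genes were picked. The EAM values of H19 were close together. Mt3, a metallothionein, Ahsg, which encodes fetuin-A, Adh6b, an alcohol dehydrogenase, and Ier5, an immediate early gene, had log2 fold changes of 1.19, 1.16, 1.63 and 0.70.

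The 10 genes with the smallest p among those with all EAM hearts below all controls were 4930578C19Rik, Fam53b, Dbp, Zfp993, Fign, Pdp2, Fam13a, Per3, St8sia6 and Pla1a, with log2 fold changes from -1.15 for Dbp to -0.46 for Fam53b. Pdp2, the phosphatase that activates pyruvate dehydrogenase, had 11.3, 16.0, 14.7 and 19.1 CPM in EAM and 22.3 to 28.3 CPM in controls. Its opposing kinase Pdk4 had 1268, 2474, 1047 and 1667 CPM in EAM and 886 to 1321 CPM in controls, and overlapped. 4930578C19Rik had 3.28, 5.08, 4.10 and 6.58 CPM in EAM and 9.18 to 12.2 CPM in controls (log2 fold change -1.12, standard error 0.21, adjusted p = 0.302).

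The genes with the largest SD of log2 CPM over the 4 EAM hearts were, for 8 of the 10 named here, highest in EAM replicate 1. They were Gm4841, F10, Ly6i, Acod1, Cxcl9, Gm6361, Chil3, Cxcl10, Gpr141 and Rpl35a-ps6. Gm4841, a predicted interferon-inducible GTPase, had 849, 5.03, 334 and 42.6 CPM in EAM and 1.93 to 10.0 CPM in controls. Acod1, which makes itaconate in activated macrophages, had 143, 1.41, 19.7 and 2.75 CPM in EAM and 0.578 to 1.19 CPM in controls. F10, which encodes coagulation factor X, had 73.6, 0.270, 8.62 and 2.24 CPM in EAM and 0.0643 to 1.36 CPM in controls. Chil3, a lectin of alternatively activated and inflammatory myeloid cells, had 103, 1.51, 11.6 and 2.70 CPM in EAM and 0.514 to 2.55 CPM in controls. EAM replicate 1 was highest and replicate 3 second in all 4 of these genes, and replicate 2 lay within the controls in Gm4841, F10 and Chil3. Gm6361 and Rpl35a-ps6 are processed pseudogenes with reads in some hearts of both groups, at 0 to 4.59 CPM and 0 to 11.2 CPM, and their reads may belong to near-identical genes.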

How the data were processed

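Paired reads were aligned by the authors to GRCm38 with HISAT2 2.0.4, duplicates were removed with Picard, and reads per Ensembl gene were counted with featureCounts. Whether strand was used in counting is not given in the sources used. The deposited values are raw counts per gene without normalization, and the table and the files of single samples differed in 0 cells. The 92 spike-in rows held 0 reads and were left out. Groups came from the sample titles, and 1 heart is 1 sample. Gene positions came from GENCODE M21 on GRCm38.

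Tests were run under R 4.3.3 using edgeR 4.0.16 (TMM, quasi-likelihood test, Benjamini-Hochberg adjustment), limma 3.58.1 and DESeq2 1.42.0, and plotted in Python 3.11.15. Log2 CPM used a prior count of 2. A difference from the control mean is on this scale, and a fold change is fitted on counts. The script was tested on simulated data. The 8 totals, between 16578239 and 21730377, make a count of 3, the limit a count of 0 allows, equal to between 0.128 and 0.193 CPM, for counting error only.

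The gene groups, marker lists and members were chosen with earlier results of these data known. Genes named are the 10 smallest p in each direction without overlap, the 10 largest SD over EAM hearts, a fixed set of symbols, and up to 3 members of each list with the largest change at 1 CPM or more. Others of a described list, Irgm2, Hlf and Krt19 among them, were named after their values were seen. A symbol was found for 14947 genes tested. Genes with under 10 reads in some controls could meet the read minimum through the EAM hearts. Those with 10 reads or more in at least 1 control stayed in the counts. A gene of the fixed set is not reported here.

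Hearts of the same replicate number deviated together in 2 of 4 numbers (correlations of 0.368, -0.0773, -0.0827 and 0.368), so the numbers were not taken as pairs. Alternatives were other tests, normalizations, filters and control sets, a replicate block, and leaving out each heart. The newer quasi-likelihood form, the likelihood ratio test without each heart, and overlap counts without each EAM heart were added after the data were seen.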

Additional observations from a re-analysis of the deposited data

Results flagged for a closer look

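In groups of 4 hearts a value was marked where the gap to the nearest heart took up most of the group's range (Dixon's 95% limit). Of 302 groups looked at, 41 were marked, 25 of them for EAM replicate 1 on the high side. Chance marks about 1 in 20 groups, but the count cannot be read against that rate, since the groups are not independent and include genes chosen for their spread over the EAM hearts or for their change. Il1a, Lrrn4 and Upk1b reached the read minimum through the EAM hearts alone, and their marks are a description.

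EAM replicate 1 stood above the other EAM hearts in interferon targets and chemokines, with 312.5 CPM of Cxcl9, 534.6 of Gbp2, 60.11 of Socs1, 238.7 of Serpina3g, 24.42 of Ccl5 and 32.67 of Cxcl13. It did so in cytokines, with 46.84 CPM of Il6, 106.4 of Il1b, 10.59 of Il1a, 105.9 of Il1rn and 14.17 of Tnf. Among genes of myeloid and cytotoxic cells it held 142.8 CPM of Acod1, 103.4 of Chil3, 73.6 of F10, 61.56 of Gpr141, 46.5 of Ly6i, 51.86 of Il1r2, 23.53 of Trem1 and 12.8 of Klrk1. It was also highest for the mesothelial markers Lrrn4 (9.444 CPM), Upk1b (4.339 CPM) and Krt19 (4.467 CPM) and for the matrix protein Tnc (29.61 CPM). Its median difference from the control mean (log2 CPM) stood apart at 1.163 for matricellular and 4.351 for mesothelium genes, 3 of 6 of which reached the read minimum through EAM hearts alone, and at -0.6245 for the tricarboxylic acid cycle and -0.7812 for cardiomyocyte markers.

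In the other EAM hearts, Vsig4 was low in replicate 3 (7.552 CPM), and in replicate 2 the pseudogene Rpl35a-ps6 (7.675 CPM) and the platelet marker median (0.7622) were high.

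Among controls, replicate 1 was high for Postn (134.4 CPM), Spp1 (14.18 CPM), Dkk3 (42.47 CPM) and the dendritic cell median (0.2241), and low for Retn (0.4945 CPM). Control replicate 2 was high for H19 (30.67 CPM). Control replicate 3 was high for the platelet median (1.157) and low for that of NK and cytotoxic cells (-0.6035). Control replicate 4 was low for Ccl8 (11.76 CPM), the complement median (-0.4303) and the acute phase median (-1.223).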

How the results depend on the processing

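Counts of called genes depended on the test and on the controls used. Against 0 higher and 0 lower by the quasi-likelihood test, the likelihood ratio test gave 45 and 2, the exact test 40 and 2, DESeq2 48 and 4, and all 12 control hearts of the series in place of 4 gave 610 and 44. In that last fit most controls came from D15 and D21, so EAM and day cannot be told apart. With a replicate block the quasi-likelihood test called 1 gene higher, Bmp10, and 0 lower. By limma-voom 868 genes were higher and 1002 lower at an unadjusted p under 0.05, against 1459 and 833, so the balance of higher and lower genes turned over. Leaving out 1 heart at a time gave 624 to 2073 genes higher and 414 to 1687 lower at that limit, and 18 to 196 higher and 1 to 25 lower by the likelihood ratio test. Leaving out each EAM heart gave 715 to 1411 genes above and 729 to 1736 below without overlap. The likelihood ratio test gave 18 without control replicate 4 and 196 without EAM replicate 2. Among genes of at least 10 CPM, those 2-fold higher and lower numbered 708 and 236 in EAM replicate 1, 58 and 12 in replicate 2, 209 and 34 in replicate 3, and 49 and 3 in replicate 4. Genes 2-fold lower numbered 358 in EAM replicate 1 when scaled by total counts and 59 in replicate 2 with a prior count of 5. The log2 fold change turned for Myh7 with total counts (0.033) and, when 1 heart was left out, in the ranges of Myh7 (-0.14 to 0.14), Postn (-0.573 to 0.0838) and Gm6361 (-0.01999 to 2.49). The causes were not tested. Of 45 lists, 9 changed the sign of their median under some alternative, none with a median beyond 0.12 in size. Of 101 named genes, 26 passed the threshold under some alternative. The alternatives looked at here were DESeq2, other normalizations, a replicate block and leaving out each heart. Of these only DESeq2 and the block called any gene. Genes at a few reads per library, such as Il1a and Bmp10 in controls, are limited by depth.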
